A study of Bos taurus with 24 samples.

Results

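Solute carriers are membrane proteins that move nutrients, ions, metals and metabolites across the cell surface and the membranes of organelles. They were taken here as the array features whose platform annotation gives 1 gene symbol made of SLC and a digit. This gave 257 of 17418 features and 194 of 9425 named genes, and 146 of these genes had 1 feature. A further 24 features that list an SLC symbol among several symbols were not used. Of the 194 genes, 185 had a feature with values on at least 20 arrays and were tested. The other 9 are SLC15A1, SLC23A2, SLC28A3, SLC2A10, SLC37A2, SLC37A3, SLC52A3, SLC7A10 and SLC9A7. Among the 185, SLC2A4RG, SLC4A1AP and SLC7A6OS are named for a neighbour or partner of a carrier and are not known to transport a solute, which leaves 182 transporters.

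The samples were the largest follicles of 16 heifers, 1 follicle per animal, with diameters of 8 to 12 mm. Total RNA of 2 follicles, 5 µg of each, was hybridised to each of 24 two-colour arrays, and every follicle was on 3 arrays. The labels name each follicle (26, 27, 31, 33, 46, 8, 861, C10, C12, C13, C22, C26, C32, C35, H893 and J980) and give no treatment, stage or breed. A level below is a follicle's log2 value relative to the mean of the 16 follicles, so it ranks follicles for 1 gene and does not rank genes by abundance. Its standard error (SE) comes from array error and holds no spread between animals. Whole follicles hold several cell types, so fewer cells of a type and less RNA per cell cannot be told apart.

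Glucose enters cells mainly through SLC2 carriers and lactate leaves through SLC16 carriers. Amino acids are exchanged by the SLC1, SLC7 and SLC38 families, some of which need the heavy chain SLC3A2 to reach the membrane. Zinc and iron are handled by SLC30, SLC39 and SLC40 proteins, and the SLC25 family serves the inner membrane of mitochondria. In the ovary, the oocyte depends on the cells around it for glucose breakdown products and several amino acids, which pass to it through gap junctions.

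For most solute carriers, as for most genes, no difference between the follicles passed the test used here. The F test of limma, which asks whether any follicle differs from the others relative to array error, called 14 of 185 genes at an adjusted p (Benjamini-Hochberg over 9026 genes) under 0.05. That is 7.57%, where 11.8% of all genes tested were called. At an unadjusted p under 0.05 there were 30 of these genes and 2390 of all genes. The median standard deviation (SD) of the 16 levels was 0.153 for these genes and 0.168 for all genes, and the median array error was 0.18 and 0.178. The levels of a gene contain array error themselves, and 55 of the 185 had an SD of levels above the array error SD. Without the array of C22 and C26, or without that of 33 and C13, the number called was 8, and without that of C32 and C26 it was 9. With no dye term in the fit 6 remained, SLC1A5, SLC25A1, SLC29A1, SLC2A6, SLC35D2 and SLC40A1, and with variances not moderated 9.

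**Figure D1:**
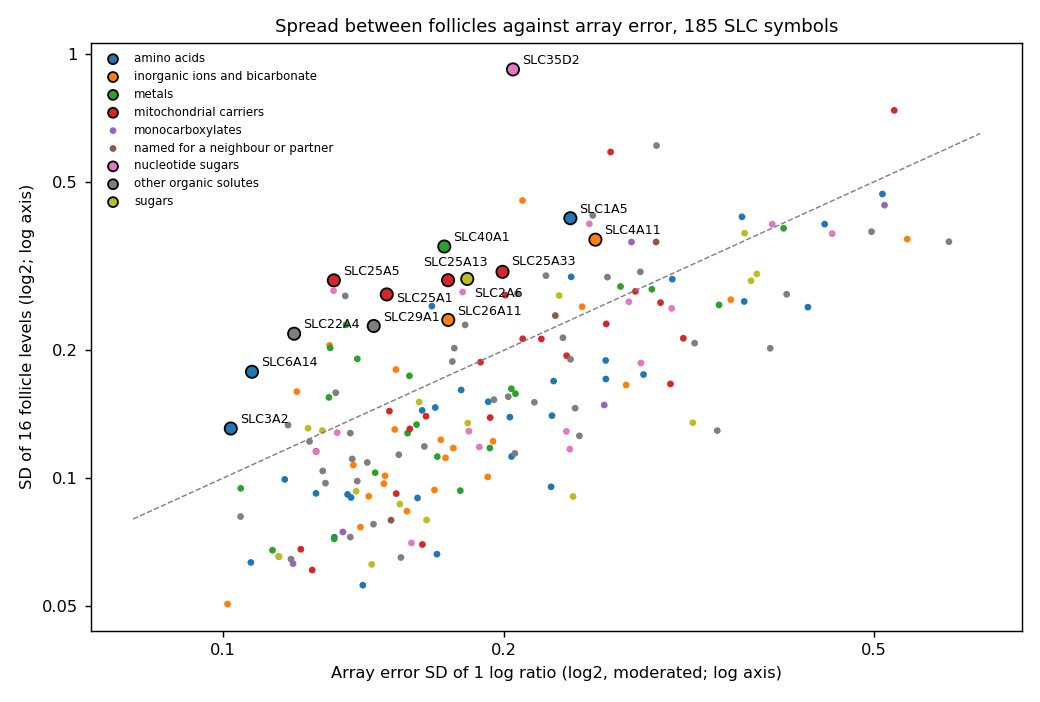
Each point is 1 of 185 genes, with the moderated array error SD of a single log ratio on the x axis and the SD of the 16 follicle levels on the y axis (both log2 values on log axes), coloured by substrate class. Larger ringed points are the 14 called genes, all of which lie above the dashed line of equal values, and SLC35D2 lies highest at 0.92.

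By substrate, 4 of 25 mitochondrial carriers were called, 3 of 32 amino acid carriers, 2 of 24 carriers of inorganic ions and bicarbonate and 2 of 42 carriers of other organic solutes. There was 1 call each among 16 sugar carriers, 22 metal carriers and 16 carriers of nucleotide sugars and their relatives. None of the 5 monocarboxylate carriers was called, 1 of them at an unadjusted p under 0.05. Mitochondrial carriers had the largest share at 16%, beside 11.8% of all genes, and metal carriers the smallest of the classes with a call at 4.55%. The median SD of levels ran from 0.123 for inorganic ions to 0.219 for nucleotide sugars. These shares rest on 0 to 4 genes each and no class was tested against another. The count of mitochondrial carriers was 2 in 8 of the 24 fits without 1 array, namely those of C12 and H893, C32 and C26, 861 and C10, C22 and C26, 33 and C12, 33 and C13, C10 and 26, and 31 and C10. With no dye term it was 1, so the order of the classes is not settled.

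**Figure D2:**
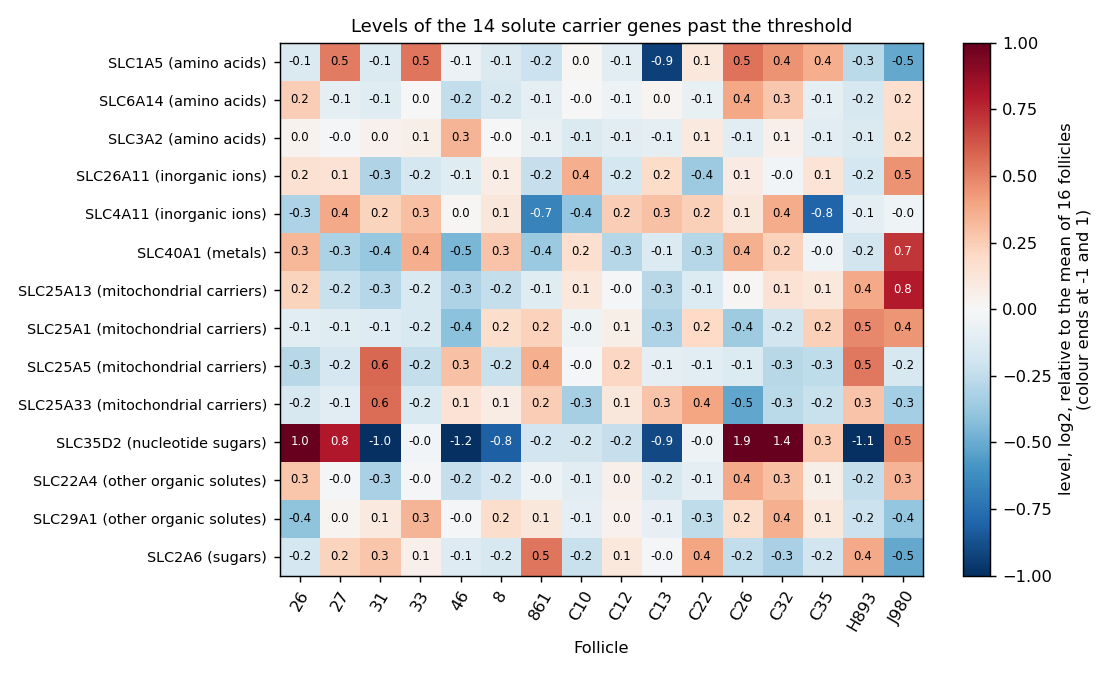
Levels (log2, relative to the mean of 16 follicles) of the 14 called genes, 1 row per gene with its substrate class and 1 column per follicle, where red is above and blue below the mean and colours end at -1 and 1. Row by row the highest and lowest follicles change, with C26 highest for 4 genes and 46 lowest for 5. Of all 1061 called genes, C26 was highest for 93 and 46 lowest for 60.

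Among amino acid carriers, SLC1A5, the sodium-dependent exchanger that brings glutamine and other neutral amino acids into cells, had its lowest level in C13 at -0.93 ± 0.17 (SE, 3 arrays). Its highest levels were 0.54 in both C26 and 33 and 0.52 in 27, with a median of -0.08. All 3 arrays of C13 gave it less signal, as log ratios of -0.88 against 46, 0.79 for 31 against C13 and 1.57 for 33 against C13. C13 therefore lay apart below the others, next to J980 at -0.51. The adjusted p was 0.0137, from the 1 of its 2 features with enough values. It was above the threshold without 3 of the arrays, up to 0.091 without that of 33 and C13, and at 0.0805 without J980.

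SLC3A2, the heavy chain that carries several SLC7 exchangers to the cell surface, was highest in 46 at 0.34 ± 0.08 and lowest in C10 at -0.15 ± 0.07, with a median of -0.01. All 3 arrays of 46 placed it above its partner, by log ratios of 0.54 over 861, -0.35 for C13 over 46 and -0.32 for C12 over 46. The spread was small, since only 46 and J980, at 0.18, exceeded 0.1. Its adjusted p was 0.0213. None of its 3 features was called alone, and leaving out 1 array ended the call in 5 of 24 fits, at most at 0.0627 without the array of C13 and 46. SLC7A5, the light chain that imports large neutral amino acids as its partner, was not called (adjusted p = 0.292), with levels from -0.32 in 27 to 0.26 in C22.

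SLC6A14, an importer of neutral and cationic amino acids, had its highest level in C26 (0.39 ± 0.07) and its lowest in 46 (-0.25 ± 0.08), with a median of -0.06 and an adjusted p of 0.016. Without the array of C22 and C26 that p was 0.059, and without J980 it was 0.0597. The remaining 29 amino acid carriers were not called. SLC38A2, an importer of small neutral amino acids that cells raise when amino acids are short, had a wide span, from -1.22 ± 0.37 in C13 to 0.90 ± 0.37 in C35, and a large array error. Its adjusted p was 0.218. C13 was the lowest follicle for both SLC1A5 and SLC38A2, though only SLC1A5 passed the test. It was also the lowest for 679 of all 9026 genes tested and for 84 of the 1061 called.

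Of genes of the amino acid response and of serine synthesis 4 of 11 were called (36.4%, beside 11.8% of all genes). DDIT3, a transcription factor of the stress response, ran from -0.45 ± 0.10 in J980 to 0.36 ± 0.10 in 46 (adjusted p = 0.00947). PHGDH, which makes the first step of serine synthesis, ran from -0.41 ± 0.15 in C35 to 0.87 ± 0.15 in 31 (adjusted p = 0.011). The list had no common order of follicles. In 46, where SLC3A2 was highest, DDIT3 was at its highest too but ASNS, which makes asparagine and was not called, at its lowest of -0.21 ± 0.11. ATF4, the transcription factor of this response, was highest in 26 at 0.40 ± 0.11 (adjusted p = 0.0298).

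Of the sugar carriers, SLC2A6, a glucose transporter family member found on lysosomes, was the 1 called of 16. It was highest in 861 at 0.53 ± 0.14, ahead of C22 at 0.39 and H893 at 0.38, and lowest in J980 at -0.51 ± 0.14. Its median was -0.07 and its adjusted p 0.0128. The arrays agreed in direction on both ends. The log ratios with 861 were 0.61 over C10, -0.63 for 46 over 861 and -0.35 for H893 over 861. Those with J980 were -0.46 over 8, -0.87 over 27 and 0.12 for 26 over J980. With variances not moderated across genes, SLC2A6 was not called.

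SLC2A1, the widespread glucose importer of the cell surface, spanned levels from -0.79 in 8 to 0.69 in 31, but with SEs from 0.25 to 0.33, and it was not called (adjusted p = 0.468). SLC37A4, which moves glucose 6-phosphate into the endoplasmic reticulum, ran from -0.39 ± 0.16 in C10 to 0.56 ± 0.17 in C13 and missed the threshold (adjusted p = 0.0956). SLC16A1, a proton-linked lactate and pyruvate carrier, ran from -0.72 ± 0.21 in C13 to 0.55 ± 0.22 in H893 with an adjusted p of 0.0908. It passed, at 0.0394, without the array of 33 and C12. No value for SLC2A3 was used here.

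Of 15 glycolytic enzymes, which break glucose down, 5 were called (33.3%, beside 11.8% of all genes). All 5 were lowest in J980, as were 421 of the 1061 called genes. LDHA, which turns pyruvate into lactate, was at -1.43 ± 0.16 there and at 0.54 ± 0.16 in 31, its highest follicle (adjusted p = 0.001). ENO1, an enzyme late in glycolysis, was at -0.75 ± 0.10 in J980 and 0.39 ± 0.10 in 861 (adjusted p = 0.000396). The median level in J980 was -0.58 over the 15 enzymes and 0.01 over the 16 sugar carriers, of which SLC2A6 alone lay below -0.5.

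J980 is the follicle in which the largest number of genes lay at an extreme. It was the lowest follicle for 1396 of 9026 genes (15.5%). For solute carriers it was the lowest for 11 of 185 (5.95%) and the highest for 24 (13%), where it was the highest for 13.5% of all genes. Levels below -0.5 in J980 were found for 3.78% of solute carriers and 7.19% of all genes, and levels above 0.5 for 5.41% and 3.98%. Markers of granulosa cells, the hormone-making cells of the inner follicle wall, were split there. INHBA (-2.69), FST (-2.05) and INHA (-0.77) were at their lowest in J980, while FSHR (0.09), AMH (-0.01) and CYP19A1 (-0.06) were near the mean. The mean of all 6 ran from -0.91 in J980 to 0.43 in 8. The part of cell makeup in the solute carrier levels of J980 was not tested.

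**Figure D3:**
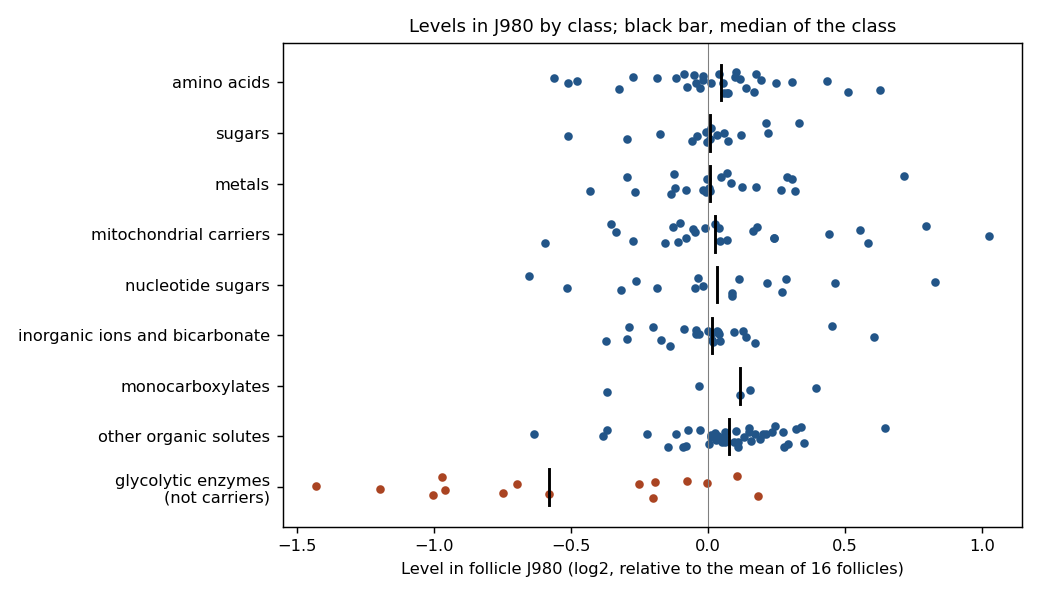
Levels in follicle J980 (log2, relative to the mean of 16 follicles) for the tested carriers of each substrate class, 1 point per gene with random vertical scatter, and for 15 glycolytic enzymes, with a black bar at each median. Carrier medians lie between 0.01 and 0.12, the enzymes' median at -0.58, and SLC40A1 at 0.72 is the highest metal carrier.

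Without J980 and its 3 arrays, 10 solute carriers were called among 15 follicles, beside 664 of 9054 genes (7.33%). SLC25A13, SLC22A4, SLC6A14, SLC1A5 and SLC26A11 were then above the threshold, with adjusted p from 0.0597 to 0.115. SLC38A11, an amino acid carrier relative, passed there at 0.0348.

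SLC40A1, ferroportin, exports iron from cells and is abundant in macrophages that recycle iron. It was the 1 called of 22 metal carriers, with an adjusted p of 0.00748. J980 was highest at 0.72 ± 0.13, followed by 33 at 0.37, C26 at 0.36 and 26 at 0.33, and 46 was lowest at -0.45 ± 0.13, below 31 at -0.38. The median was -0.09. The lead of J980 came from all 3 of its arrays, at log ratios of 1.23 over 27, 0.27 over 8 and -0.40 for 26 over J980. The call held in each of the 24 fits without 1 array, with adjusted p from 0.00227 to 0.0243, and without J980 it was 0.0181. The mean of the 6 leukocyte markers, all measured, ran from -0.42 in 46 to 0.52 in C26, and its correlation with SLC40A1 over the 16 follicles was 0.799. In J980, where SLC40A1 was highest, CXCR4 stood at 2.06, BOLA-DRA at 0.58, CD14 at 0.32 and PTPRC at 0.13. CD68 and CD74 were both at -0.03 there. J980 was also the highest follicle for CD14, which was not called. Single leukocyte markers had an r between 0.434 and 0.649 with SLC40A1. The means of the endothelial, plasma cell and granulosa lists had an r of 0.704, 0.631 and -0.632. Members of a list differed. Among granulosa markers r was -0.767 for FST, -0.739 for INHBA, -0.321 for AMH, -0.044 for INHA, 0.14 for CYP19A1 and 0.287 for FSHR. Among endothelial markers it was 0.763 for CLDN5, 0.505 for PECAM1 and 0.132 for VWF. These describe levels that share arrays, and the part of any cell type in the SLC40A1 levels was not tested. The genes most like SLC40A1 over the 16 follicles were JCAD (r = 0.888), PARP4 (r = 0.866) and DYRK3 (r = 0.862).

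Of the SLC39 family of zinc carriers, SLC39A7, SLC39A1 and SLC39A8 lay just outside the threshold. SLC39A6 came next (adjusted p = 0.214), and the rest of the family lay farther from it. SLC39A7, which releases zinc from the endoplasmic reticulum, ran from -0.43 ± 0.10 in J980 to 0.31 ± 0.10 in 861 (adjusted p = 0.0654). SLC39A1, a zinc importer of the cell surface, ran from -0.20 ± 0.09 in C26 to 0.40 ± 0.10 in 31 (adjusted p = 0.0762). For each of them 1 of 2 features was called alone, with adjusted p over features of 0.02 for SLC39A7 and 0.0324 for SLC39A1. SLC39A8, which takes up zinc and manganese, ran from -0.36 ± 0.09 in C26 to 0.32 ± 0.10 in C12 (adjusted p = 0.0924). No value for SLC30A1, SLC11A2 or the cystine importer SLC7A11 was used here.

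Metallothioneins are small proteins that bind zinc and copper. MT1A ran from -1.10 ± 0.08 in C10 to 1.83 ± 0.09 in 861 (adjusted p = 1.06e-07), and MT2A from -1.09 ± 0.08 to 1.63 ± 0.09 in the same follicles (adjusted p = 2.3e-07). In the list of metal binding and iron handling genes, 3 of 12 were called (25%, beside 11.8% of all genes), and all 3 were metallothioneins, MT3 the other one. Follicle 861 was also the highest for SLC39A7, and its SLC40A1 level was -0.37.

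The 4 called mitochondrial carriers had no common order of follicles. SLC25A13 and SLC25A1 were both lowest in 46, and SLC25A5 and SLC25A33 were both highest in 31. SLC25A13, one of the pair of carriers that exchange aspartate for glutamate, had its highest level in J980 (0.79 ± 0.13) and its lowest in 46 (-0.31 ± 0.13), with a median of -0.07 and an adjusted p of 0.00867. The 3 arrays of J980 were close, at 0.84 over 8, 0.86 over 27 and -0.80 for 26 over J980. No other follicle exceeded 0.38, the level of H893, and of the 3 arrays of 46 only 1 placed it lower. Without J980 the adjusted p was 0.115. The genes most like it were RAD51B (r = 0.879), ASB6 (r = 0.868) and CCDC8 (r = 0.811).

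SLC25A1, which exports citrate from mitochondria for the synthesis of fatty acids and sterols, was highest in H893 at 0.48 ± 0.12 and J980 at 0.44, and lowest in 46 at -0.41 ± 0.12 and C26 at -0.36. Its median was -0.07 and its adjusted p 0.0116, and it was called in each of the 24 fits without 1 array, at most at 0.04. All 3 arrays of H893 and all 3 of 46 pointed the same way as these levels.

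SLC25A5, the ADP/ATP carrier of dividing cells, was highest in 31 at 0.57 ± 0.10 and H893 at 0.53, and lowest in C32 at -0.28 ± 0.10, with a median of -0.13. Levels stood at 0.21 or more in 31, H893, 861, 46 and C12 and below 0 in the other 11 follicles. The adjusted p was 0.0253 and rose to as much as 0.0964, without the array of 31 and C13, in the 9 fits without 1 array that ended the call. SLC25A33, a pyrimidine nucleotide carrier, was also highest in 31 at 0.56 ± 0.15 and lowest in C26 at -0.52 ± 0.14. Its adjusted p was 0.0294, lost in 11 of 24 such fits, at most at 0.0819 without the array of 31 and C10.

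The other mitochondrial carriers named here were not called. SLC25A4, the ADP/ATP carrier of muscle, had levels from -0.28 in C32 to 0.43 in 31 (adjusted p = 0.414), and SLC25A3, which imports phosphate, from -0.36 in 861 to 0.58 in J980 (adjusted p = 0.261). SLC25A6, another ADP/ATP carrier, had levels between -0.13 and 0.10 (adjusted p = 0.838). That value averages 8 features which did not follow each other, with a median correlation of -0.001 and a lowest of -0.675. A single one of them was called, with J980 lowest at -1.09 ± 0.21 and an adjusted p over features of 0.0441.

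Correlations over the 16 follicles are given for 7 pairs, some of related carriers of the same solutes and some of functional partners. The pairs were chosen after the levels had been seen and the levels share arrays, so these values are descriptions with no test. For SLC25A4 and SLC25A5, Pearson's r was 0.881 and Spearman's rho 0.771. SLC25A4 lay farthest from its median in 31 and H893, and without these r was 0.759. The relation depended on the array of C26 and 33, without which r was 0.0559. That array and the one of C10 and 26 join parts of the loop, and without either the median SE of a level rose from 0.132 to 0.22 and 0.219. Over the 24 log ratios themselves r was 0.624. Sequences of these features were not examined, and whether RNA of one carrier binds features of the other was not tested.

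SLC1A4 and SLC1A5, related exchangers of small neutral amino acids, had an r of 0.615 and a rho of 0.8. Leaving out 46 and H893 gave an r of 0.709, and leaving out J980 one of 0.296. It was 0.416 with the arrays scaled to 1 spread, 0.429 with values on at least 18 arrays, and 0.378 to 0.773 in fits without 1 array. For SLC25A12 and SLC25A13, the aspartate and glutamate exchangers, r was -0.438 and rho -0.653. Leaving out C26 and C10 gave an r of -0.513. Leaving out 1 array gave values from -0.599 to -0.035, both with an array of J980 left out, that of J980 and 27 and that of J980 and 8.

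The other 4 pairs had weaker correlations, and each changed sign in at least 1 fit without 1 array. For the heavy chain SLC3A2, r was 0.202 with SLC7A5 (rho 0.279) and 0.337 with SLC7A7, another light chain (rho 0.35). SLC25A1 and ACLY, the enzyme that splits exported citrate, had an r of 0.195 (rho 0.318). SLC40A1 and FTH1, the heavy chain of the iron store ferritin, had an r of 0.138 (rho 0.271). Leaving out the 2 follicles in which the first gene was most extreme, r for these pairs was 0.458, 0.28, 0.22 and 0.357.

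**Figure D4:**
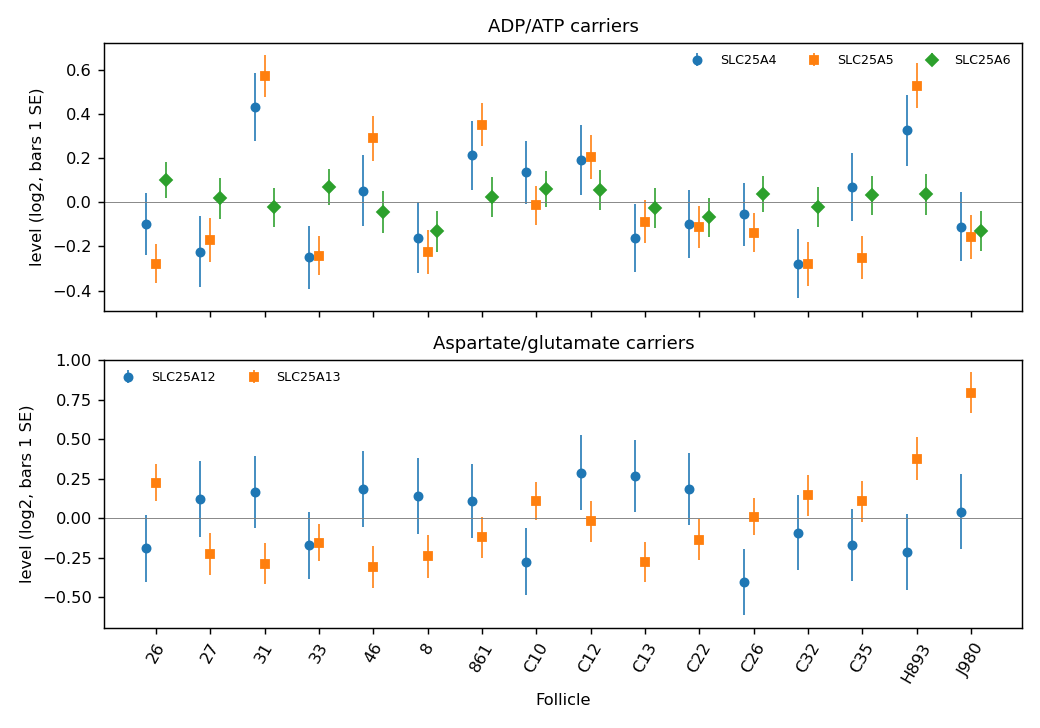
Levels of 3 ADP/ATP carriers (upper panel) and of both aspartate/glutamate carriers (lower panel) in the 16 follicles, in log2 relative to the mean, with bars of 1 SE. SLC25A4 and SLC25A5 are both highest in 31 and H893 while SLC25A6 stays between -0.13 and 0.10, and SLC25A13 stands at 0.79 in J980.

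Other genes of mitochondrial transport were listed beside the SLC25 family. Of 9 import proteins and porins (TIMM, TOMM and VDAC genes) 1 was called, VDAC1, and of MPC1, MPC2 and MCU 2 were, which makes 3 of 12 beside 11.8% of all genes. MPC1 and MPC2 form the pyruvate carrier of the inner membrane. MPC1 ran from -0.61 ± 0.10 in J980 to 0.42 ± 0.10 in 31 (adjusted p = 0.00342), and MPC2 from -0.41 ± 0.09 in 33 to 0.42 ± 0.10 in 861 (adjusted p = 0.0156). Follicle 31 was the highest for MPC1 as it was for SLC25A5, SLC25A33 and SLC25A4, the last not called. It was also the highest for 125 of the 1061 called genes, the most of any follicle.

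SLC35D2, whose protein carries nucleotide sugars into the Golgi, had the largest spread and the smallest p of all solute carriers (adjusted p = 0.00342). It has 1 feature, with values on 21 of 24 arrays, and the fit used those 21. Levels were 1.87 ± 0.37 in C26, where 2 of 3 arrays had a value, 1.38 in C32, 0.99 in 26 and 0.80 in 27. The lowest were -1.21 ± 0.24 in 46, -1.11 in H893 and -1.05 in 31, and the median was -0.12. The other 15 carriers of its class were not called, the nearest being SLC35F2 (adjusted p = 0.0738), from -0.72 ± 0.32 in 8 to 0.57 ± 0.24 in C12.

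That SLC35D2 feature ran with the immunoglobulin heavy chain IGHG1, which antibody-making plasma cells express. Over the 16 follicles r was 0.962 and rho 0.941, and r was 0.927 without C26 and C32, where IGHG1 was most extreme. Over the 21 log ratios r was 0.959. No p is given, since the gene was singled out for this relation. Its SD of levels was 1.16 times that of IGHG1. The genes most like it were SLCO2B1, an organic anion carrier of another family (r = 0.979), ATP5F1A (r = 0.97) and CTSH (r = 0.969).

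SLC35D2 was not alone in this among the solute carriers. SLC22A4, a carrier of ergothioneine and carnitine, had an r of 0.907 with IGHG1 (rho 0.921, and r of 0.854 without C26 and C32), and SLC6A14 an r of 0.86 (rho 0.785, and 0.711). These were the 3 of 185 with an r over 0.8, as were 80 of all 9026 genes, a count that includes IGHG1 itself. SLC22A4 was highest in C26 at 0.38 ± 0.08, J980 at 0.34, C32 at 0.30 and 26 at 0.28, and lowest in 31 at -0.32 ± 0.09, with a median of -0.03 and an adjusted p of 0.0131. The spreads of SLC22A4 and SLC6A14 were smaller, at 0.275 and 0.224 times the SD of IGHG1. Each of the 3 genes is seen through 1 feature.

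**Figure D5:**
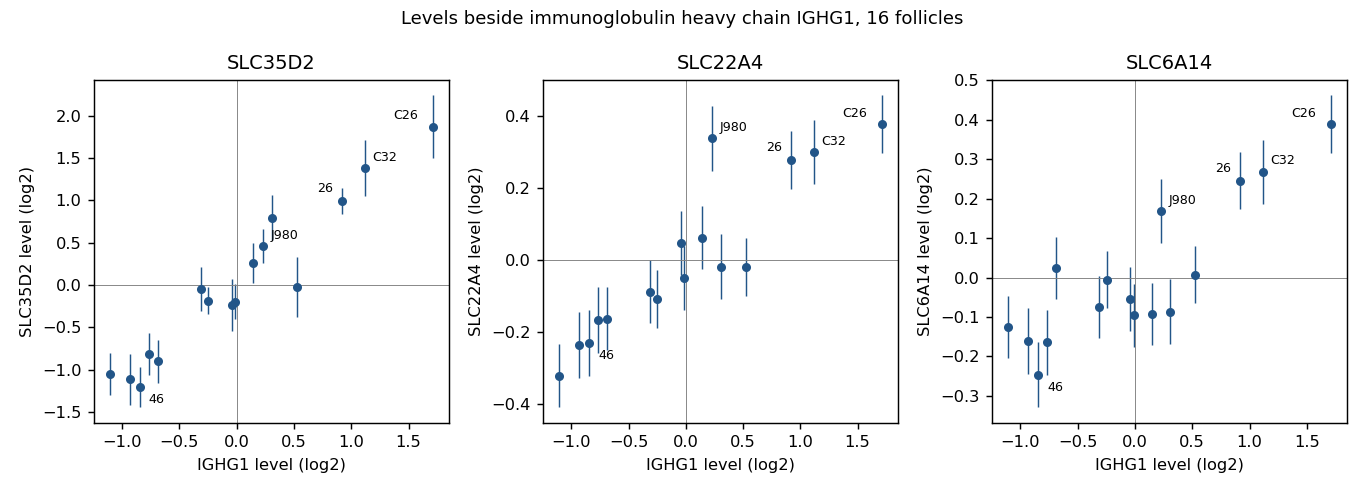
Level of SLC35D2, SLC22A4 and SLC6A14 (y axes, log2, bars of 1 SE, scales differ) against the level of IGHG1 (x axes, log2, error not drawn) in the 16 follicles. C26, C32 and 26 are high on both axes in all 3 panels, and J980 lies above the trend for SLC22A4.

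Levels of cell type markers were set beside these genes as well. Of 6 plasma cell markers 4 were measured and 3 called, and their mean level ran from -0.66 in H893 to 1.02 in C26. Its r was 0.963 with SLC35D2, 0.901 with SLC22A4 and 0.885 with SLC6A14. IGHG1 is part of that mean and these genes were singled out for their r with IGHG1. High values were therefore built in and give no separate support. IGHM and JCHAIN had an r of 0.957 and 0.866 with SLC35D2, and MZB1 one of 0.477. The mean of 3 of 5 endothelial markers, from -0.75 in H893 to 0.90 in C26, had an r of 0.951, 0.902 and 0.876 with the same genes. That mean follows PECAM1, the 1 called of the 3, with a level of 2.38 in C26 and an r of 0.948 with SLC35D2. CLDN5 had an r of 0.642 and was at 0.20 in C26, and VWF had an r of 0.04. The mean of the 6 leukocyte markers had an r of 0.778 with SLC35D2, 0.84 with SLC22A4 and 0.792 with SLC6A14. Single leukocyte markers had an r with SLC35D2 from -0.196 for CD14 to 0.854 for BOLA-DRA. BOLA-DRA had an r of 0.873 with SLC6A14. The part of plasma cells, leukocytes or vessels in these levels, and whether the SLC35D2 feature binds other RNA, was not tested.

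Among carriers of other organic solutes, SLC29A1, which equilibrates nucleosides across the cell surface, was highest in C32 at 0.36 ± 0.11 and 33 at 0.34, and lowest in 26 at -0.41 ± 0.10 and J980 at -0.38. Its median was 0.04 and its adjusted p 0.018. None of its 3 features was called alone, though they followed each other with a median r of 0.509. Without the array of 33 and C13 the adjusted p was 0.0522.

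Both called ion carriers were the least stable. SLC26A11, an anion exchanger, was highest in J980 at 0.45 ± 0.13 and C10 at 0.37, and lowest in C22 at -0.36 ± 0.13, with a median of 0.02 (adjusted p = 0.0387). Leaving out 1 array ended its call in 17 of 24 fits, at most at 0.098 without that of 861 and C10. SLC4A11, a transporter of protons and water related to bicarbonate carriers, was lowest in C35 at -0.80 ± 0.18 and 861 at -0.67 and highest in 27 at 0.38 ± 0.19, with a median of 0.12 (adjusted p = 0.0437). It was lost in 21 of 24 such fits, at most at 0.146 without the array of C35 and 27. Of its 2 features 1 was called, and their log ratios over the arrays had an r of 0.0603. SLC20A1, a sodium-phosphate importer, lay just outside the threshold (adjusted p = 0.056), from -0.37 ± 0.12 in J980 to 0.29 ± 0.12 in C22.

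Partner subunits and pumps that set the gradients used by carriers gave 2 calls of 10, beside 11.8% of all genes. ATP2A2, the calcium pump of the endoplasmic reticulum, was at -0.98 ± 0.17 in J980 and 0.57 ± 0.19 in C22 (adjusted p = 0.0153). ATP1B3, a subunit of the sodium pump, was at -1.09 ± 0.15 in J980 and 0.64 ± 0.15 in 861 (adjusted p = 0.0175). J980 was the lowest follicle for both pumps and for 1 of the 14 called solute carriers, SLC2A6, beside 421 of all 1061 called genes. Of the 10 genes of this list, J980 was the lowest follicle for 3 and the highest for 3.

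Features of the same gene rarely followed each other. For 40 solute carrier genes with at least 2 usable features, the median correlation between the log ratios of their features had a median of 0.0668. It was over 0.5 for 4 genes and below 0 for 14, from -0.318 for SLC5A5, the iodide importer, to 0.622 for SLC25A39, which brings glutathione into mitochondria. SLC25A38 (-0.291), SLC25A11 (-0.266), SLC35B2 (-0.25), SLC7A4 (-0.235) and SLC7A7 (-0.0651) were among the others below 0. Of the 14 called genes, 10 were tested through a single feature. Tested feature by feature, 15 of 240 were called, which is 6.25%, where 12.2% of all 16358 features were. One of the 15 belongs to SLC7A6OS, which as a gene was not called (adjusted p = 0.162).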

How the data were processed

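Per the labels' protocols, slides of dendrimer-labelled RNA were read on an Axon scanner with GenePix Pro. The authors deposited log ratios, taken here as log2. An absolute value of up to 6.32 is too large for base 10 on a 16-bit scanner (at most 4.82), while natural logs are possible. The background correction was, like the normalization, not given in the sources used here. Nothing states the direction, and Cy5 over Cy3 was taken as likely from the labels. If it were the reverse, every sign would turn and the F tests and correlations would stay. Arrays held 16094 to 17028 values, their number limits the precision, and signal over background is unknown.

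Array medians were set to 0. Where a feature had at least 20 values it was kept, and such features were averaged per gene symbol of the platform annotation, and all 194 solute carrier genes matched RefSeq gene IDs with the same symbol. Follicle effects (1 for Cy5, -1 for Cy3) and a dye term were fitted, which leaves 8 residual degrees of freedom on 24 arrays. They were tested together by the F test of limma 3.58.1 in R 4.3.3, with Benjamini-Hochberg adjustment at 0.05. Each animal gave 1 follicle and its repeat arrays are technical, so the p-values measure differences between these follicles against array error only.

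The members, substrate classes and lists were chosen with earlier results of these data known. Named were all called carriers, the smallest p of each class, well-known carriers chosen by name, genes whose features disagreed, the 2 smallest p of each companion list and the 3 genes most like the 3 leading carriers. Others, among them carriers just outside the threshold, partners in pairs and immunoglobulin genes, were chosen with their values in view. The alternatives concerned the centring, scaling, minimum number of arrays, dye term, moderation, feature per gene and the arrays included. The number of per-sample columns not used was 0. Errors of the levels are correlated through the loop, and correlations are given without a test. Python 3.11.15 with matplotlib 3.10.9 drew the figures. No probe or protein sequences were used here.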

Additional observations from a re-analysis of the deposited data

How the results depend on the processing

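Without the dye term 6 solute carrier genes and 608 of all genes were called, and 8 and 1245 features. Without moderation of variances it was 9 and 589 genes, and 7 and 1190 features. Without J980, 664 of all genes were called. Fits without 1 array called 8 to 16 solute carrier genes, 684 to 1175 of all genes, 8 to 18 solute carrier features and 1382 to 2348 of all features. The r of SLC35D2 with IGHG1 lay between 0.906 and 0.973 in such fits. Only SLC40A1, SLC25A1 and, where it could be fitted, SLC35D2 were called under every alternative run, those without 1 array included.

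The r of SLC3A2 and SLC7A5 turned to -0.0586 with values on all 24 arrays and to -0.269 with 1 feature per gene, and that of SLC40A1 and FTH1 to -0.334 and -0.488. In fits without 1 array these pairs ran from -0.165 to 0.343 and from -0.123 to 0.507, SLC3A2 and SLC7A7 from -0.0642 to 0.505, and SLC25A1 and ACLY from -0.26 to 0.429. The cause of these changes was not tested. No paired analysis was possible because each array already sets a pair of follicles against each other and repeat numbers link no follicles.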
